A study of Mus musculus with 150 samples.

Results

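The axon initial segment and the node of Ranvier, the sites where a myelinated axon starts and renews its action potential, are built from a shared set of adhesion and scaffold proteins. Expression of 8 genes of that set was followed here in single somatosensory neurons: Nfasc and Nrcam (cell adhesion molecules), Ank2 and Ank3 (ankyrins), Sptbn1, Sptbn4 and Sptan1 (spectrins) and Epb41l3 (a membrane skeleton linker). The genes were listed by name from knowledge of these structures, with earlier results of these data known. All 8 were among the 54082 genes of the count table, 34741 of which had a count in any cell. Each of the 150 samples was 1 neuron from a CD1 mouse pup, read by Smart-seq, a full-length cDNA method with 1 cell per library. The labels class 45 cells as hairy skin, 1 as both skin types and all the others as glabrous, meaning hairless, skin, and the cell with both labels entered no test. The labels give 10 litter names, of which 2 were at postnatal day 4 (33 cells) and the others at day 5. Some names join letters, such as A_B and E_F_G, and the sources used here do not say whether these stand for several litters. Each name is called a litter and used as the replicate. No genotype, treatment or sex separates the groups in the labels.

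In a neuron, ankyrin binds the tails of the adhesion molecules and of voltage-gated sodium channels and ties them to a spectrin lattice under the membrane. Ank3 (ankyrin-G) and Sptbn4 (betaIV-spectrin) are the forms concentrated at initial segments and nodes, whereas Ank2 (ankyrin-B) and Sptbn1 (betaII-spectrin) serve mainly the rest of the axon. Nefh, the heavy neurofilament subunit, marks large neurons with myelinated axons, and small unmyelinated neurons hold little of it.

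Cells were split at 500 CPM of Nefh, where CPM is a gene's count scaled to a common total per cell. At or above it were 84 glabrous cells, 19 hairy cells and the cell with both labels, called Nefh-high here, and below it 46 Nefh-low cells (20 glabrous, 26 hairy). The lowest Nefh level above the limit was 623 CPM and the highest below it was 377 CPM. Totals ran from 395811 to 1053854 counts per cell, so that 1 count equalled 1.36 CPM at the median total. The median number of detected genes was 14356.5 in the Nefh-high cells and 13253 in the Nefh-low cells, and 6 cells, 5 of them Nefh-low, had fewer than 10000. Neuron markers were present in both classes, with summed levels per litter of 8756 to 11115 CPM in the Nefh-high and 5290 to 9654 CPM in the Nefh-low cells.

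The members lie on 8 different chromosomes. In the GENCODE annotation of mm10, Nfasc is at chr1:132564690-132741797 (minus strand), Nrcam at chr12:44328885-44601964 (plus), Ank2 at chr3:126921612-127499350 (minus) and Ank3 at chr10:69398773-70027438 (plus). Sptbn1 is at chr11:30099395-30268175 (minus), Sptbn4 at chr7:27356383-27447686 (minus), Sptan1 at chr2:29965560-30031451 (plus) and Epb41l3 at chr17:69075683-69289989 (plus). All are protein-coding genes, with 7 (Sptbn4) to 47 (Ank3) annotated transcripts. The deposited values are given per gene, so that neuronal and glial forms of Nfasc, for example, are not separated. The annotated genes whose exons overlap those of a member had at most 0.215 CPM on average.

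The 4 members whose level was higher in Nefh-high cells are shown by the 250 bases before the most upstream start that RefSeq lists for them (GRCm38.p6, each printed 5′ to 3′ on the gene's strand), because they are the members that were higher together. They lie at chr1:132707327-132707576 (minus) for Nfasc, chr12:44328635-44328884 (plus) for Nrcam, chr7:27446590-27446839 (minus) for Sptbn4 and chr17:69075427-69075676 (plus) for Epb41l3. The Nfasc and Sptbn4 stretches lie inside the GENCODE spans of their genes, so for these the RefSeq start used is not the outermost annotated start. Capitals mark GC boxes, the letters GGGCGG or their reverse complement CCGCCC.
Nfasc: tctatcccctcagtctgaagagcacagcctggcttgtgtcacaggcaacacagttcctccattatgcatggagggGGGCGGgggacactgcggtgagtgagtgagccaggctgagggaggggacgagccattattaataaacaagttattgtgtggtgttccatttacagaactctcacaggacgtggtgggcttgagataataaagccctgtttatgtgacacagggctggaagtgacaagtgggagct
Nrcam: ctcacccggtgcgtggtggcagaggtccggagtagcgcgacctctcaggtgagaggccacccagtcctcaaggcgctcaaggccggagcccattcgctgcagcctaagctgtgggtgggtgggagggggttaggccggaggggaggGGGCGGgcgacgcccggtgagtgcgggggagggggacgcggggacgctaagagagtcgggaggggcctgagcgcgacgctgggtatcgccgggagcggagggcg
Sptbn4: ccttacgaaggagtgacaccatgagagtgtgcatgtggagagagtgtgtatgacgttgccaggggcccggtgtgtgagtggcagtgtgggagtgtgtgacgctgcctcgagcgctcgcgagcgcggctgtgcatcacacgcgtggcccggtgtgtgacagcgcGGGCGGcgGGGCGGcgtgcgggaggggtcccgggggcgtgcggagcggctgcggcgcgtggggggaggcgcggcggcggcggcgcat
Epb41l3: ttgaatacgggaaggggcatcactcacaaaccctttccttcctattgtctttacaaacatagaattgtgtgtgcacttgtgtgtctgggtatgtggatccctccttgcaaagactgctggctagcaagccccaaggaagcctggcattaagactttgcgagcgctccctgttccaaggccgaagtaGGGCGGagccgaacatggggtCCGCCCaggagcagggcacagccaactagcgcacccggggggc
Nfasc and Nrcam each held 1 GC box, and Sptbn4 and Epb41l3 held 2. A GC box was found in 32.7% of 32817 promoter stretches of the same length, and 5 stood before Sptan1 and none before Ank2 or Sptbn1, whose levels did not pass the test between the classes. No TATAAA and no CCAAT (both strands searched) was found in the 4 stretches shown, and these occur in 12.4% and 33.8% of all. A match describes the letters and not a site in use. Nfasc has 4 CpG dinucleotides in this stretch and Sptbn4 has 33, beside a median of 6.

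Nefh-high neurons carried more Nfasc, Sptbn4, Epb41l3 and Nrcam than Nefh-low neurons of the same litters, and less Ank3. Ank2, Sptbn1 and Sptan1 did not pass the test. Counts were summed over the cells of a class in each of the 7 litters with at least 2 cells of both classes (79 Nefh-high and 44 Nefh-low cells) and compared with the litter as a block. Thus 5 of 8 members passed at an adjusted p of 0.05, beside 22.7% of the 13135 genes tested; 4 were higher (11.6% of all genes) and 1 was lower (11.2% of all genes). The median log2 difference was 0.62 over the 8 members and -0.05 over all genes tested. As the members were chosen with earlier results of these data known, these shares and medians only describe the list. The labels do not say whether cells of a litter came from 1 animal, and the p-values measure the spread between litters.

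The adhesion molecules come first. Nfasc encodes neurofascin, whose neuronal form gathers ankyrin-G and sodium channels at nodes and whose glial form sits at the flanking paranodes. Its level in the Nefh-high sums ran from 52.9 to 188 CPM, with a median of 96.2 and a mean of 101.2 ± 44.8 (SD, n = 7 litters). In the Nefh-low sums it ran from 9.96 to 29.3 CPM, with a median of 13.1 and a mean of 15.9 ± 6.87. The ranges did not overlap, and the difference was 5.84-fold (95% interval 3.66 to 9.32; log2 2.55 ± 0.30 SE; edgeR adjusted p = 0.00052). Nrcam, a related molecule that joins neurofascin at nodes, ran from 95.5 to 254 CPM (median 113.2) in Nefh-high and from 26.3 to 75.6 CPM (median 62.8) in Nefh-low sums. All 7 litters were again higher in the Nefh-high class, by 2.16-fold (1.52 to 3.05; log2 1.11 ± 0.23; edgeR adjusted p = 0.0070). The highest Nrcam value, 254 CPM, came from the 2 Nefh-high cells of litter M, and the next litter had 121.8 CPM; without litter M the log2 difference was 0.96 and passed.

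The ankyrins separated. Ank3, which organises the initial segment, ran from 40.2 to 112.9 CPM (median 88.03, mean 81.8 ± 25.6) in Nefh-high sums and from 126.5 to 326 CPM (median 182, mean 200 ± 68.2) in Nefh-low sums. It was lower in the Nefh-high class in 7 of 7 litters, with ranges that did not overlap, and fell by 1.34 on the log2 scale (SE 0.27; 2.53-fold lower; edgeR adjusted p = 0.0072). Ank2 ran from 428 to 669 CPM in Nefh-high and from 360 to 833 CPM in Nefh-low sums. These ranges overlapped, and the log2 difference of -0.27 ± 0.15 did not pass (edgeR adjusted p = 0.22). The ratio of Ank3 to Ank2 counts, which does not depend on how libraries are scaled, had a median of 0.178 in Nefh-high and 0.313 in Nefh-low sums and was smaller in the Nefh-high class in every one of the 7 litters. The ratio of Nfasc to Ank3 counts had medians of 0.979 and 0.0904. That it was greater in the Nefh-high class in 7 of 7 litters follows from the opposite directions of these genes in every litter.

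Among the member spectrins, the nodal form passed and the others did not. The rise was not particular to it, as Sptb, a relative outside the 8 members, was also higher (log2 1.65, edgeR adjusted p = 0.046). Sptbn4, which anchors ankyrin-G at initial segments and nodes, was low in all sums: 11.3 to 23.6 CPM (median 13.3) in Nefh-high and 1.68 to 7.10 CPM (median 3.17) in Nefh-low ones. The difference was 3.66-fold (2.05 to 6.53; log2 1.87 ± 0.38; edgeR adjusted p = 0.0066), in the same direction in 7 litters. Sptbn1, the beta chain of the general axonal lattice, had medians of 538 and 487 CPM and differed by a log2 of 0.04 (95% interval -0.23 to 0.30; edgeR adjusted p = 0.85). Sptan1, the alpha chain that pairs with either, had medians of 564 and 481 CPM and differed by 0.13 (-0.26 to 0.52; edgeR adjusted p = 0.64). The ratio of Sptbn4 to Sptbn1 counts had medians of 0.0248 and 0.00736, greater in the Nefh-high class in 7 of 7 litters.

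Epb41l3 links adhesion complexes beside the node to the spectrin skeleton. It ran from 598 to 909 CPM (median 656, mean 736 ± 145.7) in Nefh-high and from 195 to 365 CPM (median 257, mean 270 ± 58.8) in Nefh-low sums. It was 2.58-fold higher (2.12 to 3.14; log2 1.37 ± 0.13; edgeR adjusted p = 0.00022), and its SE was smaller than those of the other members that passed. For these 5 genes the litter ranges of the classes did not overlap, which held for 7.8% of all genes tested, and 20.3% of all genes moved 1 way in every litter.

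**Figure D1:**
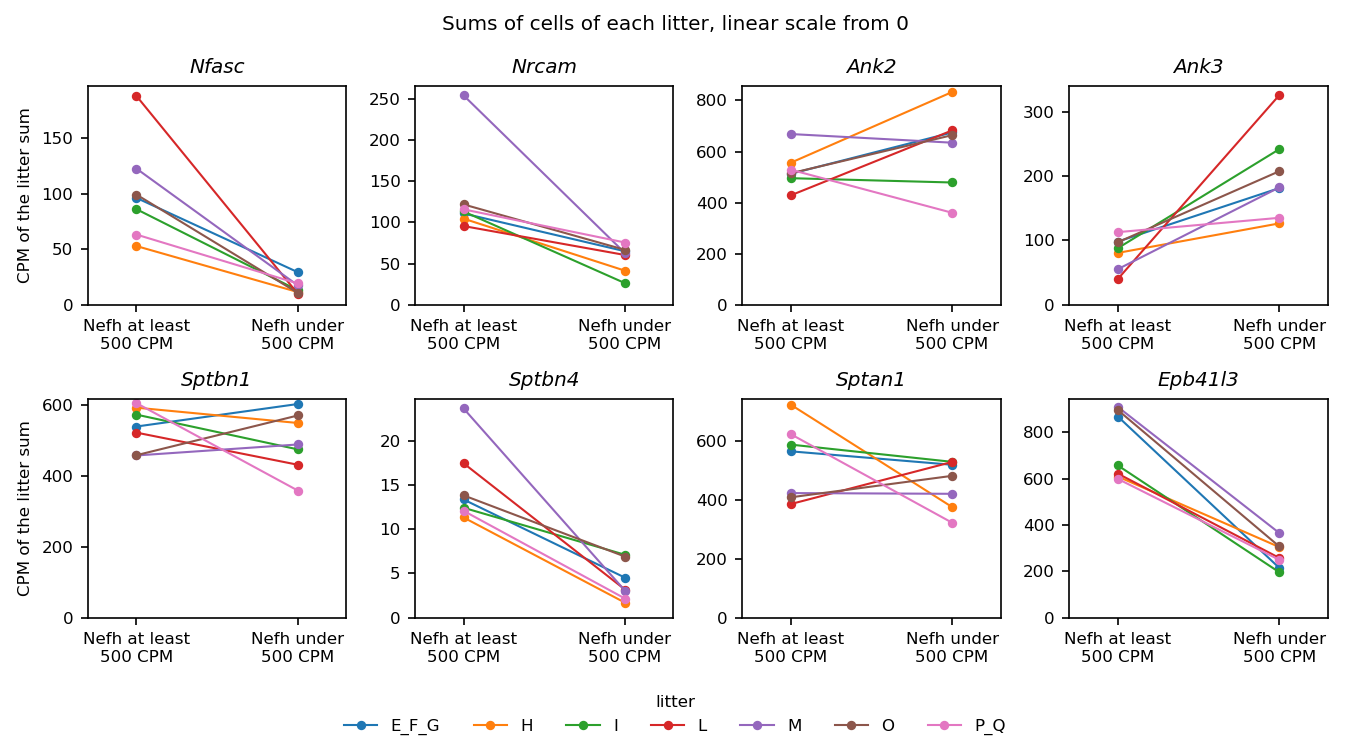
CPM of the summed cells of each litter (vertical axis, linear from 0) in the Nefh-high and Nefh-low class, with a line joining the classes of 1 litter (7 litters). Nfasc, Nrcam, Sptbn4 and Epb41l3 fall along every line and Ank3 rises along every line, from 40.2 to 112.9 CPM up to 126.5 to 326 CPM, whereas lines of Ank2, Sptbn1 and Sptan1 cross.

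The same split was visible in single cells. Nfasc was detected in every Nefh-high cell, at 15.3 to 234 CPM (median 79.1), and in 35 of 46 Nefh-low cells, at up to 71.7 CPM (median 8.51). No Nefh-low cell reached the Nefh-high median of Nfasc, and no Nefh-high cell lay below the Nefh-low median. Epb41l3 had medians of 652 and 280 CPM, and again 0 of 46 Nefh-low cells lay above the Nefh-high median. Nrcam had medians of 114.6 and 38.6 CPM, with 5 of 46 Nefh-low cells above the Nefh-high median. Sptbn4 had a count in all but 2 of the Nefh-high and 29 of 46 Nefh-low cells, and at medians of 11.9 and 1.87 CPM a single cell holds only a few counts of it. Ank3 was detected in every cell, with medians of 82.9 and 160 CPM, and 91.3% of Nefh-high cells lay below the Nefh-low median. For Ank2 the medians were 511 and 646 CPM, for Sptbn1 511 and 491 CPM and for Sptan1 515 and 389 CPM. The share of Nefh-high cells below the Nefh-low median was 82.7% for Ank2, whose litter sums did not pass, 46.2% for Sptbn1 and 26.9% for Sptan1.

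**Figure D2:**
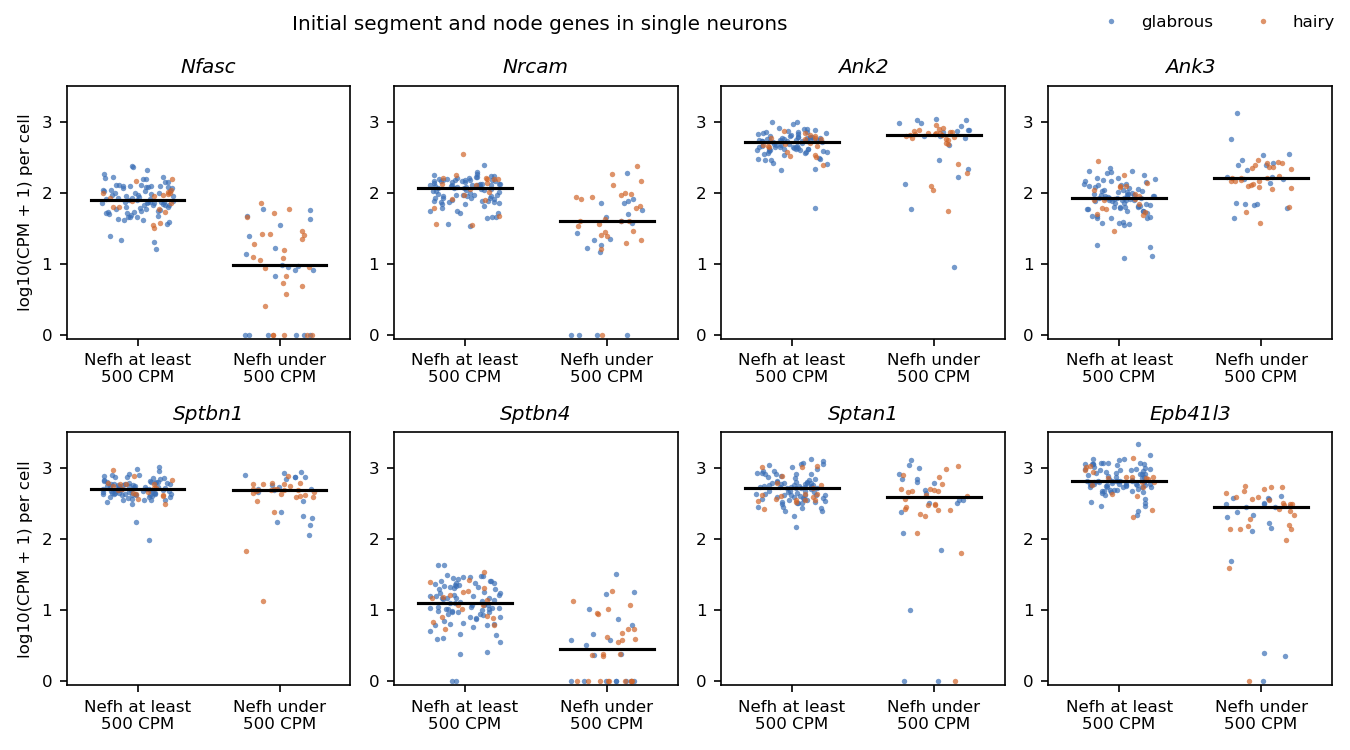
log10(CPM + 1) of each member (vertical axis) in single cells with Nefh at least 500 CPM or under 500 CPM; each point is 1 cell, blue for glabrous and orange for hairy, and the black line is the median. Nfasc and Epb41l3 have no Nefh-low cell above the Nefh-high median, and the cell with the highest Ank3 lies at 1337 CPM in the Nefh-low class.

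Markers of other cells moved with the Nefh classes. The summed level of 10 Schwann cell markers was 1109 to 4218 CPM in Nefh-high and 1938 to 12889 CPM in Nefh-low sums. It was lower in the Nefh-high class in 7 of 7 litters, by a mean log2 of -1.66 ± 0.88 (SD; exact two-sided sign-flip p = 0.0156, the smallest that 7 litters allow; 0.0430 adjusted over 11 marker lists), and 0 of its 10 genes were higher there. The 5 fibroblast markers behaved likewise (-1.77 ± 1.32; exact p = 0.0156, adjusted 0.0430), while the 7 satellite glia markers differed by -0.01 ± 1.51 (exact p = 0.97) and the 8 neuron markers were 0.54 ± 0.28 higher (exact p = 0.0156, adjusted 0.0430). None of these markers was at 0 in all sums. With the summed Schwann, satellite glia and fibroblast markers as a covariate, Nfasc (log2 2.65) and Epb41l3 (1.22) passed. Ank3 (-1.61, edgeR adjusted p = 0.059), Sptbn4 (2.10, 0.073) and Nrcam (0.73, 0.22) kept their direction and did not pass. In that fit Ank2 was -0.66 (edgeR adjusted p = 0.056), beside -0.27 without the covariate, and did not pass either. Within plate 1 (3 litters) Nfasc and Epb41l3 passed, and within plate 2 (4 litters) Nfasc, Epb41l3 and Sptbn4 did; Ank3 was -1.07 (edgeR adjusted p = 0.056) and -1.48 (0.075), and Nrcam 1.33 (0.056) and 1.02 (0.079). Glabrous and hairy cells taken alone (3 litters each) gave log2 differences of 2.00 and 2.00 for Nfasc, which passed in both. Epb41l3 had 1.36 and 1.36 and passed in hairy cells but not in glabrous ones (edgeR adjusted p = 0.052). Ank3 (-1.18 and -0.62), Nrcam (1.06 and 1.39) and Sptbn4 (1.53 and 1.96) passed in neither.

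1 cell stood apart for Ank3. This Nefh-low glabrous cell of litter L had 1337 CPM of Ank3, beside 560 CPM in the next cell. It had no count of Nefh, Nfasc, Nrcam, Sptbn4, Sptan1 or Epb41l3, and had 4957 detected genes. Without the 6 cells under 10000 detected genes, Ank3 differed by -1.13 ± 0.19 and passed, and without litter L by -1.08 ± 0.18.

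Across all 150 cells, the rank correlation with Nefh (Spearman rho) was 0.77 for Nfasc, and 17 of 7740 genes of at least 20 CPM had a higher one. It was 0.74 for Epb41l3 (34 genes higher), 0.57 for Sptbn4 and 0.52 for Nrcam. It was 0.06 for Sptan1, -0.004 for Sptbn1 and -0.14 for Ank2, and at -0.49 for Ank3 it was lower than that of all but 71 genes. The median over these genes was 0.10, with a 5th percentile of -0.33 and a 95th of 0.56. Cells of a litter share their preparation and cells differ in detected genes, with which Nfasc (rho 0.48) and Sptbn4 (0.51) also went, so these values are descriptions. Within the 9 litters of at least 8 cells, rho with Nefh was above 0 in 9 of 9 for Nfasc (0.40 to 0.88) and Epb41l3 (0.24 to 0.93), and below 0 in 9 of 9 for Ank3 (-0.87 to -0.06).

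Within the Nefh-high cells alone, rho with Nefh was 0.51 for Nfasc and 0.40 for Epb41l3, beside a median over genes of 0.01. It was 0.25 for Nrcam, 0.24 for Sptbn4 and -0.28 for Ank3. Sptan1 (-0.29) and Sptbn1 (-0.25), whose sums did not pass between the classes, also had negative values there. Among the 46 Nefh-low cells rho was 0.46 for Epb41l3, 0.40 for Ank2 and 0.21 for Nfasc, beside a median of 0.17. For Ank3 it was 0.12, opposite in sign to that in the Nefh-high cells, and for Nrcam 0.04. Ank2 in the Nefh-low cells also went with neuron markers (0.70) and against the summed Schwann, satellite glia and fibroblast markers (-0.58), and their part in this was not tested.

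**Figure D3:**
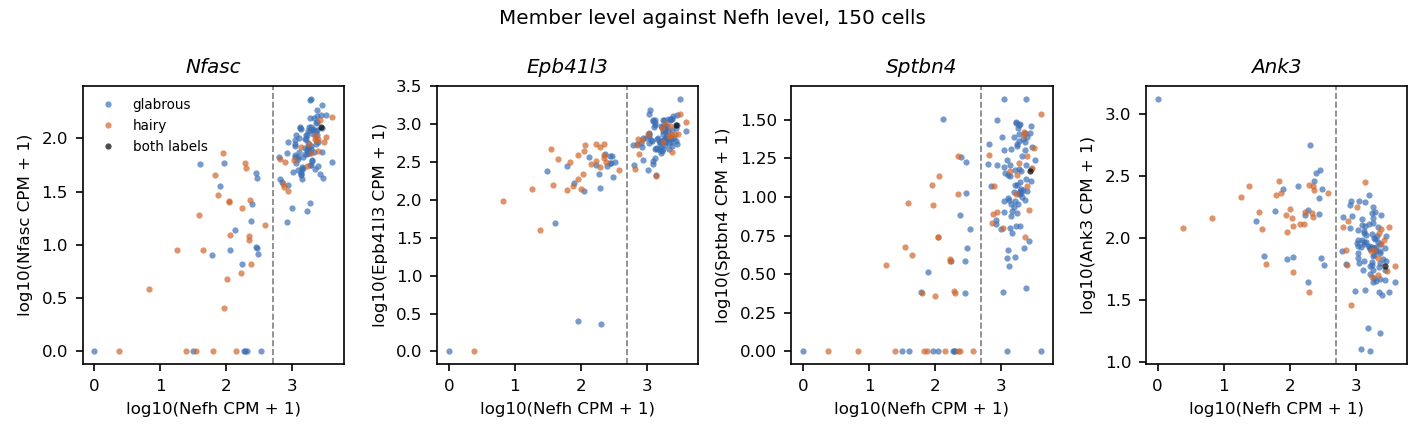
log10(CPM + 1) of Nfasc, Epb41l3, Sptbn4 and Ank3 (vertical axes) against log10(CPM + 1) of Nefh (horizontal axis) in 150 cells; blue is glabrous, orange hairy and black the cell with both labels, and the dashed line marks 500 CPM. Nfasc and Epb41l3 climb with Nefh (rho 0.77 and 0.74) and Ank3 declines (-0.49).

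Members also differed in what they went with. Of the 28 pairs of members, Nfasc with Epb41l3 had the highest rho over 150 cells, 0.70, and Ank3 with Epb41l3 the lowest, -0.51. Sptan1 and Sptbn1, the chains that form the general axonal spectrin tetramer, had a rho of 0.68, and Ank2 went with Ank3 (0.43) and Sptbn1 (0.45). Among genes of at least 20 CPM, the 3 most like Nfasc were Slc17a7, Nefm and Nefl (0.81 each), the first a vesicular glutamate transporter and the others neurofilament subunits. Those most like Epb41l3 were Eno2, Prepl and Pja2 (0.84 to 0.85), and for Nrcam they were Cntn1, Susd2 and Syne4 (0.65 to 0.69), Cntn1 being a paranodal adhesion molecule. Sptbn4 was most like Nfic, Nefh and Lhfpl4 (0.57 each), Sptbn1 and Sptan1 were each like the other, Capns1, a calpain subunit, and Cbarp, and Ank2 was most like Ebf1, Gnal and Plekha6 (0.64 to 0.65). Ank3 was most like Rnf7, Eef1a1 and Macroh2a1 (0.53 to 0.56).

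Other genes of the same structures were read from lists chosen with earlier results of these data known. Of 29 tested partners at the node and initial segment (30 listed), 14 were higher and 1 was lower in the Nefh-high class, beside 11.6% and 11.2% of all genes tested, with a median log2 of 0.59 over the list and -0.05 over all genes. Sodium channel genes Scn1a (160 ± 45.04 against 24.3 ± 11.8 CPM, log2 2.73) and Scn8a (1.54), the latter the main nodal channel, and the channel subunit Scn4b (1.49) rose, while the subunit Scn3b fell by 0.63. The potassium channel genes Kcnq3 (4.15; 18.8 ± 8.03 against 1.05 ± 0.88 CPM) and Kcnk4 (2.39) rose, as did Kcna1 (2.44), Kcna2 (1.31), their subunit Kcnab2 (0.85) and Adam22 (0.83), which sit beside the paranode. Of the paranodal adhesion genes, Cntn1 (1.93) and Cntnap1 (1.32) rose, and Cntnap2 (2.89), which holds the potassium channels in place, rose as well. The other 14 did not pass, and 1 was not tested because its counts were low.

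Relatives of the members did not move 1 way. Of 11 tested (13 listed), those higher included Sptb (log2 1.65), Epb41 (1.27) and Epb41l1 (1.11), and L1cam (-0.88), Epb41l2 (-1.46) and Add1 (-0.41) were lower. L1cam is an adhesion molecule of the same family as Nfasc and Nrcam, and its level was 163 ± 44.8 CPM in Nefh-high and 284 ± 71.1 CPM in Nefh-low sums. Among 8 axon cytoskeleton genes, Nefl (2.84), Nefm (4.49), Tubb3 (0.71) and Map1b (1.04) were higher and Ina (-0.81) was lower. Nefl and Nefm share their filament with Nefh, the gene that set the classes.

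Hairy and glabrous neurons of the Nefh-high class were then compared, which asks whether these genes vary with the kind of skin reached. No member passed, and none had an unadjusted p under 0.05, in the 7 litters with a cell of each skin type (61 glabrous, 17 hairy cells; some hairy sums held 1 cell). Of the 12087 genes tested 0 passed (0%), 729 had an unadjusted p under 0.05, and DESeq2 called 89, none of them a member. Nfasc was 54.8 to 99.4 CPM (median 81.1) in glabrous and 30.7 to 102.4 CPM (median 74.4) in hairy sums. These overlapped, and the log2 difference of hairy over glabrous was -0.09 (95% interval -0.44 to 0.27; edgeR adjusted p = 0.95). Nrcam had medians of 107.5 and 105.5 CPM (log2 -0.02, -0.34 to 0.31), and Ank3 medians of 91.95 and 89.5 CPM (0.00, -0.59 to 0.58). Epb41l3 had medians of 646 and 628 CPM (-0.10, -0.46 to 0.26). The widest interval was that of Sptbn4, with medians of 13.7 and 10.5 CPM (-0.26, -0.88 to 0.35) or, as a ratio of hairy to glabrous, 0.545 to 1.28. Sptbn1 (0.16, -0.07 to 0.40), Ank2 (-0.25, -0.64 to 0.14) and Sptan1 (-0.22, -0.65 to 0.22) did not pass either.

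The mix of cells differed between these skin groups. No hairy cell was among the 20 cells in which Ntrk3 was the highest of the receptor genes Ret, Ntrk2 and Ntrk3, and mean Ntrk3 was 215 ± 145.4 CPM in glabrous and 57.8 ± 23.3 CPM in hairy sums. Among cells with Ret as the highest alone, again 0 members passed. In the Nefh-low class (9 glabrous and 17 hairy cells in 5 litters) 7 members were tested and 0 passed, beside 0% of 11055 genes (55 with an unadjusted p under 0.05; DESeq2 called 4). There the median of all genes lay at a log2 of 0.56 and the intervals were wide: Nfasc had 0.61 (-2.37 to 3.59) and Ank3 -0.42 (-2.01 to 1.17). Epb41l3 had 0.73, Nrcam 0.45, Sptan1 0.22, Sptbn1 0.11 and Ank2 -0.31, and Sptbn4 was too low to be tested. These values depended on litter L, whose glabrous sum is the single cell with 1337 CPM of Ank3 and 4957 detected genes: without litter L the median of all genes was 0.01 and that of the members went from 0.22 to -0.31, with Nfasc at -0.05 and Ank3 at 0.10. The difference of the skin change between the Nefh classes passed for 0 of 8 members and 0% of 12914 genes, and DESeq2 called 53 genes and no member; the estimates ran from -0.51 (Epb41l3, -1.98 to 0.97) to 0.60 (Ank3, -0.73 to 1.92).

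**Figure D4:**
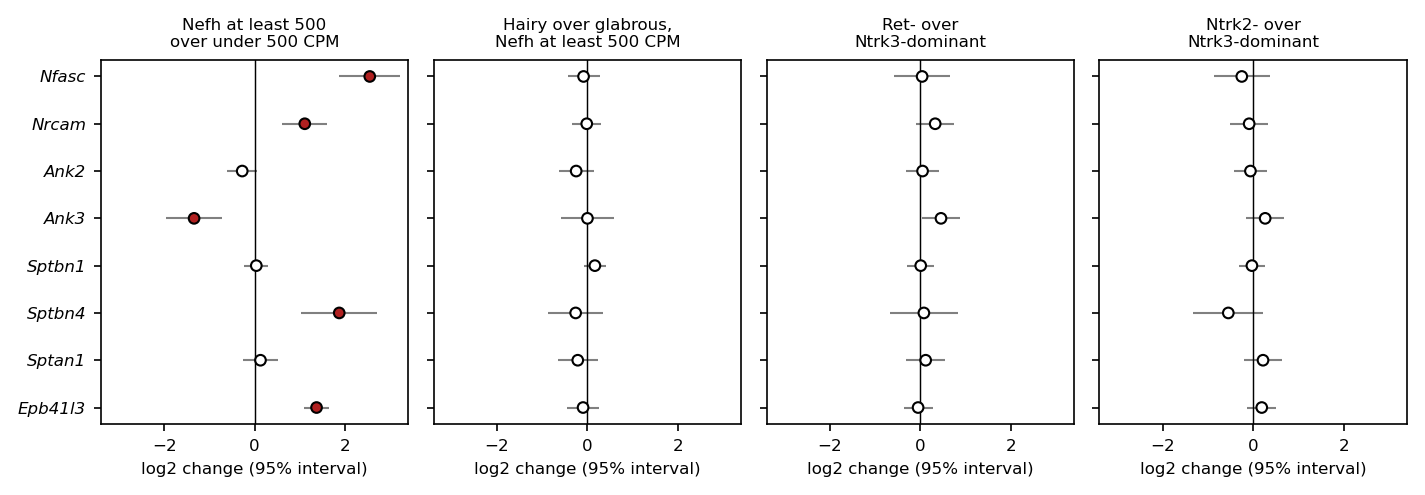
log2 change (horizontal axis) with its 95% interval for each member in 4 comparisons of litter sums; filled red points passed an edgeR adjusted p of 0.05 and open points did not. 5 members are filled in the Nefh comparison, and none in the skin comparison or in the comparisons of receptor classes.

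Within the Nefh-high class, the level of the members was set against the receptor gene that was highest in a cell, since Ret, Ntrk2 and Ntrk3 mark different kinds of large sensory neurons. There were 64 Ret-dominant, 20 Ntrk2-dominant and 20 Ntrk3-dominant cells, in 10 litters. The Ret-dominant count includes the cell with both labels, which entered no test. In 3 pairwise comparisons no member passed, beside 0.254% (Ret against Ntrk3), 0.407% (Ret against Ntrk2) and 1.19% (Ntrk2 against Ntrk3) of 11797 genes. Nfasc was 86.997 ± 25.7 CPM (n = 9 litters) in Ret-dominant, 75.8 ± 35.5 CPM (n = 7) in Ntrk2-dominant and 97.1 ± 62.5 CPM (n = 8) in Ntrk3-dominant sums. The smallest unadjusted p was that of Ank3, 90.9 ± 21.1 CPM in Ret-dominant and 67.9 ± 24.6 CPM in Ntrk3-dominant sums (log2 0.46 ± 0.20, p = 0.032, edgeR adjusted p = 0.38). Nrcam was 136.1 ± 47.9, 89.02 ± 14.3 and 100 ± 34.5 CPM in the Ret-, Ntrk2- and Ntrk3-dominant sums, and Ret over Ntrk2 gave 0.42 (95% interval -0.01 to 0.85). Sptbn4 was 16.0 ± 5.46, 9.84 ± 3.28 and 14.7 ± 7.05 CPM, and Ret over Ntrk2 gave 0.63 (-0.15 to 1.40). Of the listed partners, Kcnk4 was higher in Ret- than in Ntrk3-dominant sums (1.25 ± 0.22, edgeR adjusted p = 0.024). Without litter E_F_G, or without litter P_Q, 0 genes passed as higher in that comparison, so Kcnk4 did not pass there. Cntnap2 (-2.68 ± 0.40, edgeR adjusted p = 0.0033) and Scn2a (-1.12 ± 0.26, 0.043) were lower in Ntrk2- than in Ntrk3-dominant sums.

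The Nefh-low class was split by Tafa4, a gene of C-fibre touch neurons (18 cells), and by Calca, the peptide gene of many pain-sensing neurons (17 cells), each at 200 CPM. A cell that reached both limits counted as Tafa4-positive, and Calca ran up to 3675 CPM in that class. No member of 7 tested passed between these (7 litters), beside 4.14% of 10937 genes. Sptan1 came nearest, at 407 ± 110.8 CPM (n = 8 litters) in Tafa4-positive and 627 ± 245 CPM (n = 7) in Calca-positive sums (log2 -0.60 ± 0.22; edgeR adjusted p = 0.18). Nfasc was 15.1 ± 8.29 and 19.1 ± 14.8 CPM, Ank3 193 ± 68.9 and 191 ± 123.4 CPM, and Epb41l3 338 ± 60.3 and 274 ± 101.4 CPM. Nrcam (log2 -0.02), Ank2 (0.00) and Sptbn1 (-0.13) did not pass either, and Sptbn4 was too low to be tested. Of the lists, Scn4b (4.06 ± 0.75), Fgf12 (2.05 ± 0.26) and Ina (1.89 ± 0.24) were higher in Tafa4-positive sums, and Ank1 (-2.36 ± 0.42), Nefm (-1.43 ± 0.32) and Kcnab2 (-0.70 ± 0.15) were lower. The remaining 11 Nefh-low cells reached 200 CPM of neither gene, and their 6 litter sums held the lowest mean of Nfasc (9.77 ± 15.9 CPM), Nrcam (27.9 ± 18.1 CPM) and Epb41l3 (200 ± 146.4 CPM) among the 6 classes. Their means of Sptbn4 (3.31 ± 6.25 CPM), Sptan1 (287 ± 192 CPM) and Sptbn1 (458 ± 230 CPM) were also the lowest, so that this held for 6 of 8 members. Several of these sums held 1 cell, and single cells of this class went down to 12.5 CPM of Sptbn1 and 7.88 CPM of Ank2. Without these cells, an alternative chosen after seeing the data, the same count of 5 members passed between the Nefh classes, with Nfasc at 2.33 and Ank3 at -1.26.

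In order of mean level, the 3 Nefh-high classes stood above the 3 Nefh-low ones for Nfasc, Nrcam, Sptbn4 and Epb41l3, and below them for Ank3. Between the Nefh-high classes, and between the Tafa4-positive and Calca-positive ones, no member passed a test, and the cells with neither gene were not tested against the others. For Ank2 the Tafa4-positive sums were highest (708 ± 110 CPM) and the Ntrk2-dominant lowest (477 ± 100 CPM), and for Sptbn1 all 6 means lay between 458 and 546 CPM.

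**Figure D5:**
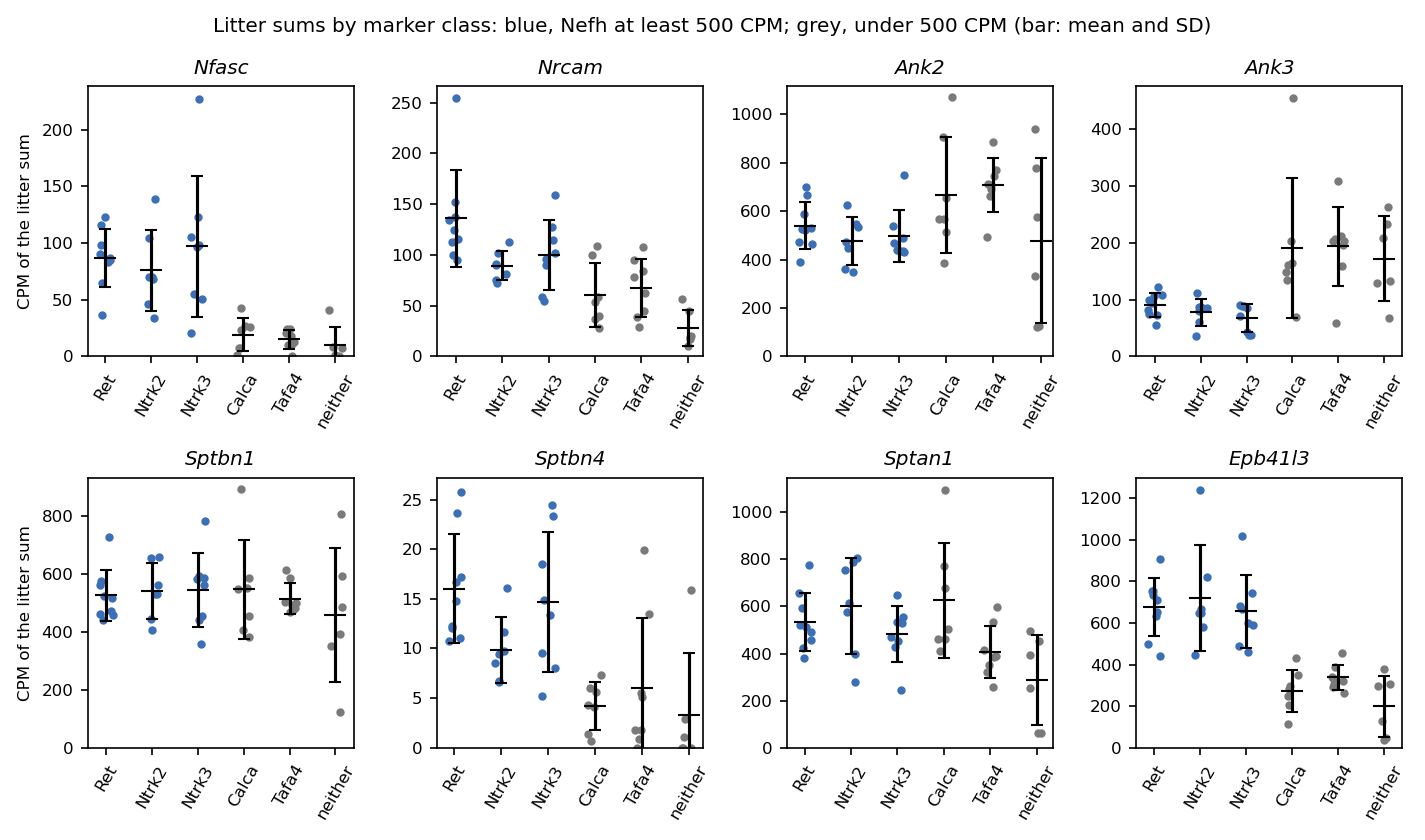
CPM of litter sums (vertical axis, linear from 0) in 6 classes: Nefh-high cells by their highest receptor gene (blue) and Nefh-low cells by Calca, Tafa4 or neither (grey); points are litters, and bars give the mean and SD, cut at 0 where they would pass below it. Means of Nfasc run from 75.8 to 97.1 CPM in the blue classes and from 9.77 to 19.1 CPM in the grey ones.

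Age was compared in glabrous Nefh-high cells, between 2 litters at day 4 and 7 at day 5. No member and 0% of 14528 genes passed, and no member had an unadjusted p under 0.05; DESeq2 also called 0 genes. Nfasc was 54.8 and 96.7 CPM in the day 4 litters and 57.6 to 188 CPM (median 86.1) in the day 5 litters, so that these overlapped (log2 -0.33, 95% interval -1.14 to 0.48). Nrcam was 117.5 and 125.7 CPM at day 4 and 91.3 to 118.3 CPM at day 5 (0.22, -0.07 to 0.51). The log2 differences of day 4 over day 5 were 0.19 for Ank3, 0.11 for Sptbn1, 0.09 for Sptan1, 0.03 for Ank2, -0.01 for Sptbn4 and -0.28 for Epb41l3. With 2 litters at day 4 precision was low, and differences within the intervals given are not excluded.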

How the data were processed

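Smart-seq libraries of polyA RNA from 150 single neurons (18 amplification cycles, 5 cDNA batches, Nextera XT, per the labels' protocols) were used. The authors deposited whole-number expected counts for every gene in every cell, without normalization between cells. FastQC, cutadapt, Salmon and mm10 are named in the submitters' processing notes; no source used here gives the annotation or says whether lengths were corrected for. So levels of different genes are not set against each other. Members and gene lists were chosen with earlier results of these data known.

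CPM used raw totals. Counts were summed per litter and class, and a litter entered a comparison with at least 2 cells in each Nefh class, or 1 cell a sum in the other comparisons. The tests used R 4.3.3 with edgeR 4.0.16 and limma 3.58.1 (TMM, filterByExpr, quasi-likelihood F-test), with litter as block (litter from the labels; none for age) and Benjamini-Hochberg over all genes tested, threshold 0.05. The SE is the log2 change over the square root of F. Marker lists were compared by exact two-sided sign-flip tests over litters. DESeq2 1.42.0, other scalings, filters, Nefh limits (250, 1000 CPM), plates, skin types and left-out litters were alternatives. Models were tested on simulated data. After centring, sums of the 2 Nefh classes of a litter correlated at -0.03 to 0.25 (median 0.11), and sums of both skin types at -0.18 to 0.21. Members were named in each comparison, listed genes where they passed (some are not reported here), and the 3 most like genes by Spearman rho. No pair of cells had identical counts. RefSeq promoters were matched by symbol for 7 of 8 members.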

Additional observations from a re-analysis of the deposited data

Results flagged for a closer look

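Litter sums of the members were screened for a litter that stood apart from the others of its class (Dixon's test at 95%). Of 72 groups of 4 to 10 litters, 8 held such a litter, and chance alone flags about 1 in 20. Nrcam in litter M was 254 CPM (next 121.8) in the Nefh-high sums, and the same 2 cells gave 254 CPM (next 152) in the Ret-dominant sums. Ank3 in litter L was 455 CPM (next 202) in the 3 Calca-positive cells, which include the cell with 1337 CPM. Ank2 was 750 CPM (next 537) in the 1 Ntrk3-dominant cell of litter A_B and 493.3 CPM (next 662) in the 3 Tafa4-positive cells of litter P_Q. Sptbn1 was 726 CPM (next 573) in the 2 Ret-dominant cells of litter H and 893 CPM (next 585) in the 1 Calca-positive cell of litter O. Epb41l3 was 458 CPM (next 338) in the 2 Tafa4-positive cells of litter O. All 8 came from sums of 1 to 3 cells.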

How the results depend on the processing

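Between the Nefh classes, 5 members passed under DESeq2, upper-quartile scaling, no scaling, no filter, no replicate block, other Nefh limits (250 and 1000 CPM), a minimum of 1 cell and without cells under 10000 detected genes. With the covariate of non-neuronal markers 2 passed, within plate 1 there were 2, within plate 2 there were 3, with glabrous cells only 1 and with hairy cells only 2; the plate and skin settings hold 3 or 4 litters. With limma on mean log2(CPM + 1), 6 passed, Sptan1 (0.88) among them and Nfasc at 3.56. In that setting 4028 of 13135 genes passed, 3538 of them higher and 490 lower, and the median log2 of all genes was 0.40. Leaving out each litter left 5 each time. Nfasc passed in all 23 alternatives (log2 2.00 to 3.56), Epb41l3 in 22, Sptbn4 in 19, Nrcam and Ank3 in 18, all with their direction kept. The genes passing over all genes, 2988 as reported, were 1196 with the covariate, 620 and 1215 within plates, 180 in glabrous and 404 in hairy cells. In the other comparisons 0 members passed under every alternative that could be fitted; for skin type in Nefh-low cells the minimum of 2 cells could not be. Results over all genes moved more: 226 genes passed without a filter and 7 without the replicate block for skin type in Nefh-high cells (0 as reported). With 1 litter left out, the share of genes passing was 0.00849% (without P_Q) to 1.34% (without C_D) for Ret against Ntrk3, 0% (without P_Q or E_F_G) to 1.1% (without A_B) for Ret against Ntrk2, 0.299% (without E_F_G) to 2.15% (without A_B) for Ntrk2 against Ntrk3 and 1.72% (without L) to 4.25% (without O) for Tafa4 against Calca. No called value changed sign. The rank correlation with Nefh moved by less than its SD over litters when cells under 10000 genes were left out (Nfasc 0.76, Ank3 -0.49). The replicate block changed no call of a member. Sums of 1 hairy cell limit the skin comparisons.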

Other observations

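Nefh-high cells were split at 200 CPM of Calca, a split made after the values were seen and given without a test. In the 8 litters that held both kinds (36 cells with and 63 without Calca), Nfasc was lower in the Calca-carrying sums in 7 (median 70.4 against 96.6 CPM) and Ank3 was higher in 7 (107.4 against 82.6 CPM). Nefh itself was lower in 7 of these litters (1705 against 1840 CPM). Ank2 was higher in 6 (569 against 471 CPM), and Epb41l3 was higher in 4 and lower in 4 (681 against 712 CPM). Nrcam (116.3 against 105.99 CPM) was higher in 5, and Sptbn1, Sptbn4 and Sptan1 were each higher in 3.

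The cell labelled with both skin types had 2741 CPM of Nefh, 125.3 CPM of Nfasc, 165 CPM of Nrcam, 963 CPM of Epb41l3, 13.8 CPM of Sptbn4 and 58.9 CPM of Ank3.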
